A study of Mus musculus with 12 samples.

Results

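The enzymes that take glucose to lactate were followed through the silencing of the X chromosome, because a single step of that pathway, phosphoglycerate kinase, is made from an X-linked gene, *Pgk1*. The 10 genes described are the glucose transporter *Slc2a1*, the enzymes of 8 steps (*Hk2*, *Gpi1*, *Pfkl*, *Aldoa*, *Tpi1*, *Pgk1*, *Pgam1* and *Eno1*) and lactate dehydrogenase *Ldha*. They were picked by name from the 24627 genes of the count files, with earlier results of these data known. The cells were J1, an XY mouse ES cell line with 1 X chromosome, in which the promoter of the endogenous *Xist* gene had been replaced by one that doxycycline (DOX) switches on. Total RNA was sequenced at day 2 of differentiation after LIF withdrawal in 3 lines, with the full-length transcript (FL), with the A repeat deleted (ΔA) or with the B and C repeats deleted (ΔB+C). Each line was grown in 1.5 µg/ml DOX or without it (noDOX), which gives 6 groups of 2 replicates. Every line was 1 clone, and ΔB+C had been made by CRISPR from FL, so that a difference between lines cannot be told apart from a difference between clones. Not every DOX-treated cell carries a *Xist*-coated X chromosome, and in bulk RNA fewer silenced cells and weaker silencing per cell cannot be told apart. The study counted coated cells of these samples by RNA FISH and gives the largest shares for ΔB+C. The changes given here are not adjusted for these shares. The study's text calls the replicates biological duplicates, and neither it nor the labels say whether they were separate cultures, so that p-values measure the spread between these samples, whatever its source. A low-input protocol on 100 ng of RNA was used for 1 library, replicate 2 of ΔB+C with DOX, and 1000 ng for the other 11.

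Glycolysis splits a glucose molecule into a pair of three-carbon sugars and oxidises them to pyruvate, with a net gain of ATP. Phosphoglycerate kinase catalyses the first of its reactions that makes ATP. Mammals carry a somatic gene for it on the X chromosome, *Pgk1*, and an intronless autosomal copy, *Pgk2*, which is used in the testis. During X-chromosome inactivation *Xist* RNA coats one X chromosome and shuts down most of its genes, for which the A repeat is needed. The B and C repeats are tied to the recruitment of Polycomb complexes. In an XY cell no second X chromosome remains to supply the product, so that induction of *Xist* lowers an X-linked gene while its autosomal partners keep both copies. The comparison asks whether the other steps moved when *Pgk1* was lowered.

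The libraries held between 31337490 and 41240470 counts. Levels are given as CPM, the share of a library's counts scaled with factors from autosomal genes, and, between genes, as RPKM, which is CPM per kilobase of annotated exon. The tests covered 13191 genes, those that reached 1 CPM in 6 or more libraries. Changes are log2 (fold change) of DOX against noDOX, and a gene is called where its adjusted p is under 0.05. Groups of 2 libraries that do not overlap, and pairs that agree in direction, are description only. Both can arise without a change, and their share over all genes was not counted. *Xist* stood at 2.48 and 3.002 CPM in FL without DOX and at 868.7 and 907.7 CPM with DOX, at 6.35 and 8.27 against 722.0 and 570.1 CPM in ΔA, and at 2.54 and 2.49 against 1791 and 1159 CPM in ΔB+C, in the direction that the labels state. All 6 markers of pluripotent cells that were looked up (*Pou5f1*, *Sox2*, *Nanog*, *Zfp42*, *Esrrb* and *Klf4*) had counts in every library.

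Per length of transcript, *Pgam1*, *Ldha* and *Pgk1* led the list in FL without DOX, and *Hk2* was lowest. The group means there were 651.8 RPKM for *Pgam1* (SD 39.0, n = 2), 622.1 for *Ldha* (SD 14.9), 312.4 for *Pgk1* (SD 4.797), 265.9 for *Aldoa* (SD 43.7), 163.4 for *Tpi1* (SD 17.4), 114.4 for *Slc2a1* (SD 28.8), 108.8 for *Gpi1* (SD 12.4), 52.0 for *Pfkl* (SD 3.89) and 27.2 for *Hk2* (SD 3.32). *Pgam1* and *Ldha* were closer to each other than the larger of their SDs, as were *Slc2a1* and *Gpi1*. *Pgk1* and *Aldoa* differed by more than either SD. With DOX, *Pgk1* went from the third to the fourth place, to 138.1 RPKM (SD 15.8), within 1 SD of *Tpi1* at 134.4 RPKM (SD 4.79).

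The enolase step could not be followed under its own symbol. The row of *Eno1* held between 0 and 6 counts in a library, while a row named *Eno1b*, which the files place on chromosome 4 as they do *Eno1*, held between 49405 and 82992. The files do not say whether reads of *Eno1* were counted under *Eno1b*. *Eno1* did not pass the filter, 9 of the 10 genes were tested, and the *Eno1b* row is given beside them in the place of enolase. *Pgk2* held 0 counts in all 12 libraries, where 3 counts would correspond to between 0.0727 and 0.0957 CPM, and the *Aldoa* retrocopies *Aldoart1* and *Aldoart2* held at most 2 and 3 counts. The *Ldha*-like *Ldhal6b* held 15 to 30 counts and the sperm form of glyceraldehyde-3-phosphate dehydrogenase, *Gapdhs*, 80 to 171.

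*Pgk1* was more than halved by full-length *Xist* and by *Xist* without the B and C repeats, and was level without the A repeat. The gene lies at chrX:106187100-106203699 on the forward strand of GRCm38 (mm10). Its level was 693.4 and 708.6 CPM in FL without DOX and 334.9 and 284.7 CPM with DOX. In ΔB+C the noDOX libraries stood at 731.9 and 666.8 CPM and the DOX libraries at 277.8 and 223.0 CPM. In both lines the DOX libraries lay far below the noDOX libraries and did not overlap with them, which is description only. In ΔA the 4 libraries were mixed, at 899.8 and 721.1 CPM without DOX and 941.0 and 704.0 CPM with it.

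The log2 (fold change) of *Pgk1* was -1.18 in FL (SE 0.17, adjusted p = 0.0178), a fall by 55.8%, and -1.48 in ΔB+C (SE 0.17, adjusted p = 0.00471), a fall by 64.2%. In ΔA it was 0.02 (95% interval -0.36 to 0.41, adjusted p = 1). Averaged over FL and ΔB+C it was -1.33 (95% interval -1.61 to -1.05, adjusted p = 0.000595). That mean differed from the response of ΔA by -1.35 (SE 0.21, adjusted p = 0.0403), in a comparison that called 0.379% of all genes. Taken line by line the difference from ΔA was -1.20 in FL (adjusted p = 0.209) and -1.50 in ΔB+C (adjusted p = 0.0559), and with the replicate block both were called (adjusted p = 0.0019 and 4.01e-04). The responses of ΔB+C and FL differed by -0.30 (95% interval -0.85 to 0.24, adjusted p = 1), which leaves room for a fall in ΔB+C that is deeper or slightly shallower. The call in FL was lost without any of its own 4 libraries (adjusted p between 0.0725 and 0.234), and the call in ΔB+C without the low-input library (log2 fold change -1.33, adjusted p = 0.0504). The mean of both lines stayed called without any of the 12 libraries, with values between -1.41 and -1.25. The difference from ΔA was lost without each of 11 single libraries, where it lay between -1.55 and -1.13 with adjusted p up to 0.242, and was kept without ΔB+C DOX replicate 1.

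**Figure D1:**
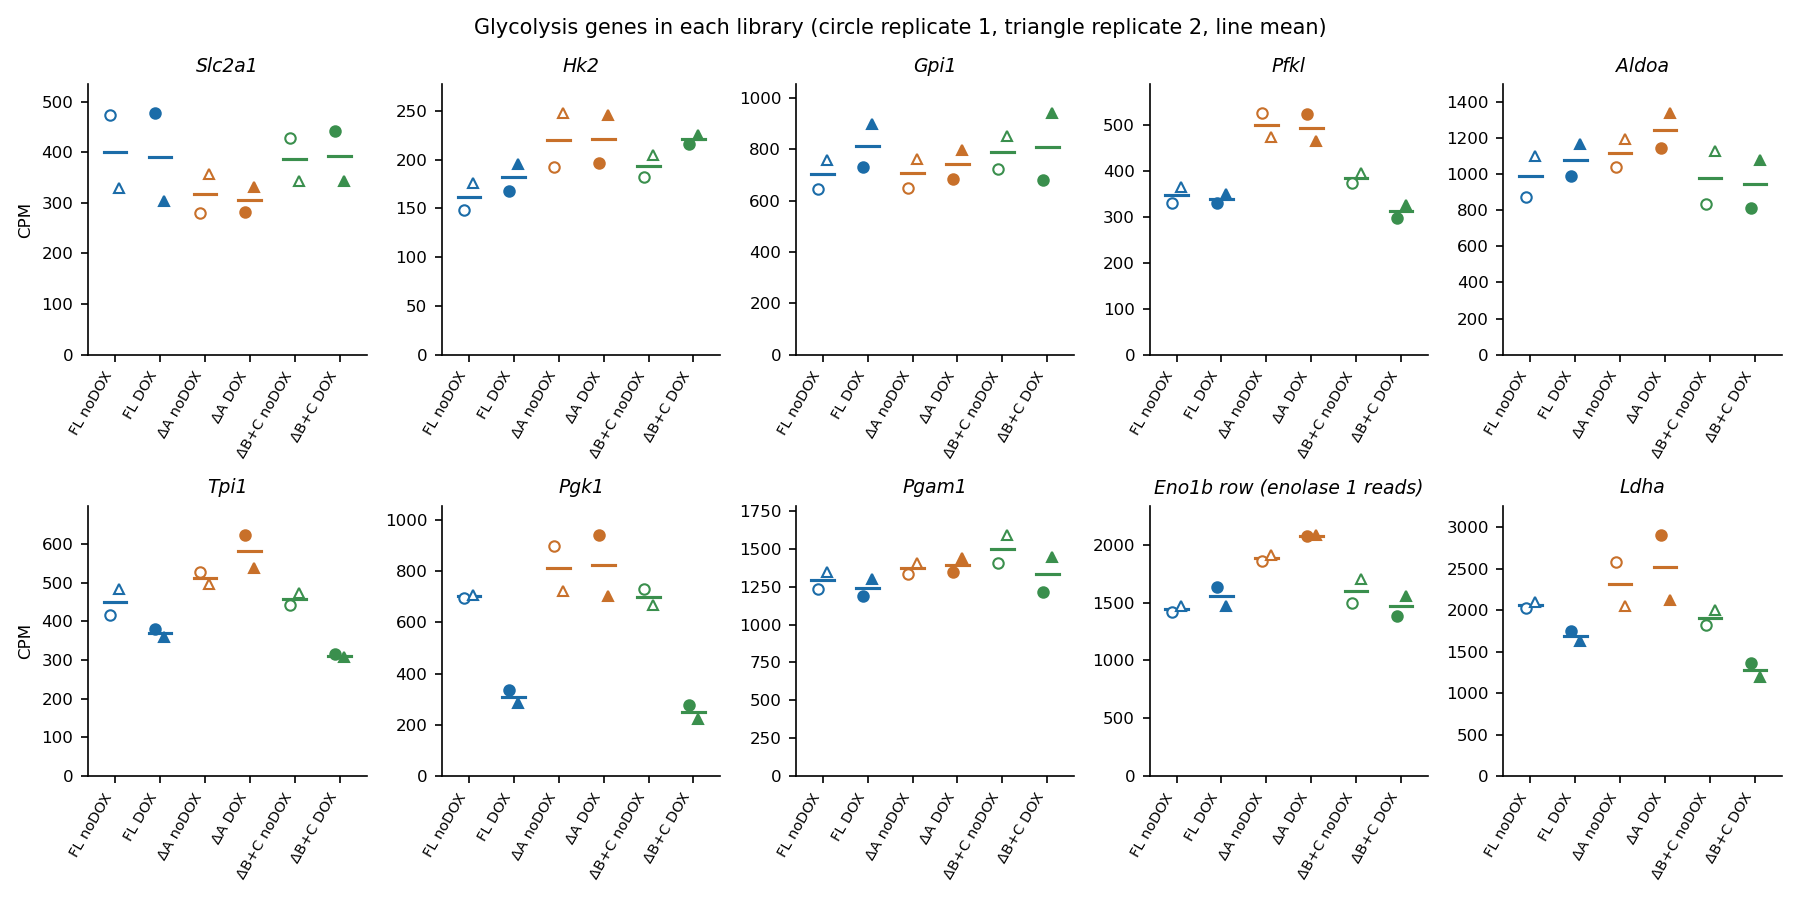
CPM of each gene in the 12 libraries (y axis, from 0) by line and DOX (x axis), in the order of the pathway. Circles are replicate 1, triangles replicate 2, filled symbols DOX and bars the mean of 2. *Pgk1* stands at 223 to 335 CPM in the 4 DOX libraries of FL and ΔB+C and at 667 CPM or more in the other 8; the panel of enolase shows the *Eno1b* row.

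Among X-linked genes the fall of *Pgk1* was on the large side without being extreme. The median log2 (fold change) of the 464 X-linked genes tested apart from *Xist* was -0.85 in FL, -0.78 in ΔB+C and -0.14 in ΔA. In FL 101 of them (21.8%) had a lower value than *Pgk1*, in ΔB+C 47 (10.1%), and in the mean of both 61 (13.1%). The 3 tested genes on each side of *Pgk1* all had negative values in the mean of both lines. They were, from the side of the lower coordinates, *Magt1* (-1.18), which takes part in N-glycosylation, the cytochrome oxidase subunit gene *Cox7b* (-0.90), the copper transporter gene *Atp7a* (-0.87), then the TFIID-related *Taf9b* (-1.06), *Fndc3c1* (-2.16) and the leukotriene receptor gene *Cysltr1* (-1.73). All but *Cysltr1* (adjusted p = 0.0691) were called, as were most of the X-linked genes tested in that mean.

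The steps before triose phosphate showed no call in any line in the fit without the replicate number as a block. *Slc2a1*, a glucose carrier, stood at 472.5 and 329.8 CPM in FL without DOX and 476.6 and 304.0 CPM with it, and at 428.4 and 342.9 against 442.7 and 342.9 CPM in ΔB+C. The spread between its replicates was larger than any shift with DOX, and replicate 1 was the higher of the pair in these 4 groups and the lower in both ΔA groups (279.2 and 356.3 CPM without DOX, 282.1 and 330.6 CPM with it). Its mean change over FL and ΔB+C was -0.01 (95% interval -0.41 to 0.40).

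*Hk2*, the inducible hexokinase that traps glucose as its phosphate, had the highest mean change of the 9 tested genes. Its values were 148.0 and 176.1 CPM without DOX and 168.2 and 195.5 CPM with it in FL, and 181.7 and 204.9 against 215.9 and 225.5 CPM in ΔB+C. Within a replicate number the DOX library was the higher one in 4 of 4 pairs of these lines. In ΔA the pairs were 192.5 and 196.3 CPM for replicate 1 and 247.2 and 245.2 CPM for replicate 2. The mean change was 0.18 (95% interval -0.07 to 0.43, adjusted p = 0.336). In the fit with the replicate number as a block it was 0.18 with adjusted p = 0.0212 and thus called, in a fit that called 16.7% of all genes higher and 19.2% lower.

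*Gpi1*, which isomerises glucose-6-phosphate, stood at 645.6 and 758.9 CPM against 731.9 and 898.1 CPM in FL and at 724.9 and 851.5 against 679.9 and 940.1 CPM in ΔB+C, with a mean change of 0.13 (95% interval -0.16 to 0.41). *Aldoa*, the aldolase of most tissues, was at 871.9 and 1101 against 986.9 and 1165 CPM in FL and at 831.8 and 1125 against 812.2 and 1080 CPM in ΔB+C, with a mean change of 0.04 (95% interval -0.27 to 0.35). Both overlapped between DOX and noDOX in every line. *Pfkl*, a subunit of the committing phosphofructokinase, was flat in FL at 328.9 and 365.7 against 329.1 and 349.4 CPM. In ΔB+C it went from 374.2 and 395.7 to 297.7 and 326.4 CPM, groups that did not overlap, which is description only. That change of -0.30 (SE 0.10) had an adjusted p of 0.143, and of 0.0312 with the replicate block.

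*Tpi1*, which interconverts the three-carbon sugars upstream of glyceraldehyde-3-phosphate dehydrogenase and *Pgk1*, fell with *Pgk1* and had the smallest p of the autosomal genes of the list. The gene lies at chr6:124810586-124814296 on the reverse strand. It stood at 416.0 and 483.8 CPM in FL without DOX and at 379.4 and 360.8 CPM with it. In ΔB+C it went from 443.3 and 472.8 CPM to 316.0 and 307.6 CPM. The groups did not overlap in either line, which is description only, since the share of all genes apart in this way was not counted. In ΔA the order was the reverse, with 527.6 and 497.4 CPM without DOX and 623.5 and 538.2 CPM with it. The change in ΔB+C was -0.55 (SE 0.10, adjusted p = 0.0267), a fall by 31.9%, and in FL the value was -0.28 (SE 0.10, adjusted p = 0.261). In the mean of both lines *Tpi1* fell by 25.2% (log2 fold change -0.42, 95% interval -0.58 to -0.26, adjusted p = 0.00871), a call kept without any single library. The call in ΔB+C was lost without each of its own 4 libraries, with adjusted p up to 0.196. The mean differed from ΔA by -0.60 (SE 0.12), with an adjusted p of 0.0985 and, with the replicate block, of 0.00761, where 11% of all genes were called.

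*Ldha*, which reduces pyruvate to lactate and returns the NAD that glycolysis needs, moved in the same direction. The gene lies at chr7:46841475-46855627 on the forward strand. Its level was 2024 and 2094 CPM in FL without DOX and 1749 and 1624 CPM with it, and went from 1818 and 1998 to 1369 and 1196 CPM in ΔB+C. Again the groups of these lines were apart, which is description only. Those of ΔA were mixed, at 2577 and 2047 against 2908 and 2129 CPM. The mean change over both lines was -0.43 (95% interval -0.68 to -0.18, adjusted p = 0.0407), a fall by 25.8%. Leaving out any of 7 of the 8 libraries of these lines, all but ΔB+C DOX replicate 1, ended the call (adjusted p up to 0.134). In ΔB+C alone the value was -0.57 (SE 0.16, adjusted p = 0.0932, with the replicate block 0.00869), in FL -0.29 (adjusted p = 0.479). The mean differed from ΔA by -0.55 (SE 0.19, adjusted p = 0.275, with the replicate block 0.0409).

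Between *Pgk1* and *Ldha* no step was called. *Pgam1*, the phosphoglycerate mutase of most tissues, was at 1237 and 1346 against 1186 and 1298 CPM in FL and at 1408 and 1591 against 1215 and 1447 CPM in ΔB+C, with a mean change of -0.11 (95% interval -0.29 to 0.06). Within a replicate number its DOX library was the lower one in 4 of 4 pairs of these lines, with an adjusted p of 0.366 for the mean and of 0.0728 with the replicate block. The *Eno1b* row stood at 1423 and 1474 against 1639 and 1469 CPM in FL and 1499 and 1708 against 1384 and 1562 CPM in ΔB+C, with a mean change of -0.01 (95% interval -0.16 to 0.14). In ΔA, whose tests called none of these genes, the values without and with DOX were 650.5 and 762.0 against 684.0 and 798.6 CPM for *Gpi1*, and 524.8 and 473.1 against 523.6 and 464.7 CPM for *Pfkl*. *Aldoa* stood at 1037 and 1195 against 1147 and 1335 CPM there, *Pgam1* at 1333 and 1408 against 1347 and 1437 CPM. The *Eno1b* row, at 1862 and 1913 against 2074 and 2085 CPM, did not overlap in ΔA (0.14, SE 0.09, adjusted p = 1).

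**Figure D2:**
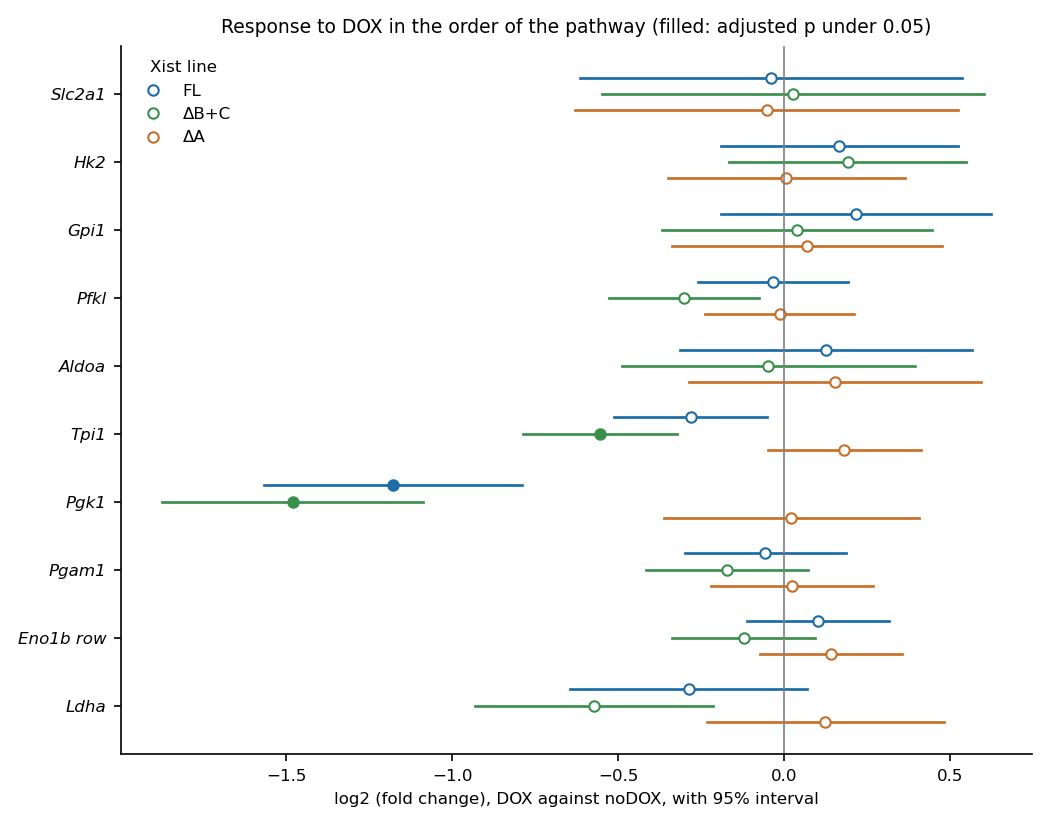
Log2 (fold change) of DOX against noDOX (x axis) for each gene in the order of the pathway (y axis), with 95% intervals, in FL, ΔB+C and ΔA. Filled points passed the adjusted p of 0.05: *Pgk1* in FL and ΔB+C and *Tpi1* in ΔB+C.

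Counted over the list, no autosomal step was called higher when *Pgk1* fell in the fit without the replicate block, and 1, *Hk2*, was with it. In FL 1 of the 9 tested genes was called lower, *Pgk1*, and 0 higher, where 1.09% of all tested genes were called lower and 0.144% higher. In ΔB+C 2 were called lower, *Pgk1* and *Tpi1*, and 0 higher, against 2.13% and 0.811% of all genes. In the mean of both lines 3 were called lower, with *Ldha* added, and 0 higher, against 6.82% and 4.27%. In ΔA 0 were called in either direction, where 0% of all genes were called lower and 0.00758%, *Xist* alone, higher. Of the 8 autosomal genes tested, 0 were higher at an unadjusted p under 0.05 in FL, ΔB+C, their mean or ΔA by edgeR, and likewise by DESeq2 and limma-voom. At that threshold edgeR had 1 of them lower in FL, 3 in ΔB+C and 3 in the mean. The shares of all genes at that threshold without the replicate block are not given here, so these counts are description only. With the replicate block, at the same threshold, 2 of the 8 were higher and 2 lower in FL. In ΔB+C 1 was higher and 4 lower, and in the mean 2 were higher and 4 lower. There 4014, 4761 and 6083 of the 13191 genes passed in either direction in FL, ΔB+C and the mean. After adjustment *Hk2* was the single gene called higher in the mean, and 4 genes, *Pgk1*, *Tpi1*, *Ldha* and *Pfkl*, were called lower in ΔB+C, where 12% of all genes were. The median change of the 8 autosomal genes was -0.04 in FL, -0.11 in ΔB+C and -0.06 in their mean, beside 0.00, 0.01 and 0.00 over all autosomal genes. In the fit without the replicate block the upper ends of the 95% intervals of the mean were 0.06 for *Pgam1*, 0.35 for *Aldoa*, 0.40 for *Slc2a1*, 0.41 for *Gpi1* and 0.43 for *Hk2*. They give the rises that this fit still allows and include the shift between replicate numbers. The intervals of the fit with the block are not given here. The interval of *Pfkl* in the fit without the block, -0.33 to -0.01, lay below 0.

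*Pgk1* was also set against its own pathway within each library. Taking log2 CPM of *Pgk1* minus the mean log2 CPM of the other 8 tested genes, the ratio was 0.25 and 0.17 in FL without DOX and -0.82 and -1.07 with it, and 0.26 and -0.00 against -0.98 and -1.39 in ΔB+C. In ΔA it was 0.45 and 0.05 without DOX and 0.43 and -0.02 with it. The ratio moved by -1.16, -1.31 and -0.05 in FL, ΔB+C and ΔA. With *Eno1* included as its almost empty row the shifts were -1.14, -1.35 and -0.15, and with the counts of copies added to their genes -1.17, -1.32 and -0.05. The 10 genes and the *Eno1b* row together took up between 0.716% and 1.06% of all counts, lowest in the ΔB+C DOX libraries (0.716% and 0.772%) and highest in ΔA.

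Lines also differed before *Xist* was switched on. Without DOX, *Pfkl* was higher in ΔA, at 524.8 and 473.1 CPM, than in FL, by 0.52 (SE 0.10, adjusted p = 0.0145), and so was the *Eno1b* row, at 1862 and 1913 CPM, by 0.38 (SE 0.10, adjusted p = 0.0375). Of the 9 tested genes 1 was called higher, *Pfkl*, where 4.3% of all genes were. Both calls were lost without each of the 4 noDOX libraries of these lines, that of *Eno1b* also without either ΔA DOX library, with adjusted p up to 0.129 and 0.207. *Hk2* was higher by 0.44 with an adjusted p of 0.117, and of 0.00137 with the replicate block, which called 16.2% of all genes higher. *Pgk1* itself differed by 0.21 (95% interval -0.17 to 0.59). Between ΔB+C and FL, parent and daughter clone, 0 of the 9 genes were called without DOX, where 0.0227% of all genes were, and 0 had an unadjusted p under 0.05 among the autosomal ones with edgeR, limma-voom or DESeq2, and 3 with the replicate block (*Hk2*, *Pgam1* and *Gpi1*, all higher in ΔB+C). The share of all genes at that unadjusted threshold is not given here.

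The replicate number left its own trace on these genes. In the fit with the block, replicate 2 was higher than replicate 1 for *Aldoa* (0.31), *Gpi1* (0.28), *Hk2* (0.23) and *Pgam1* (0.14) and lower for *Pgk1* (-0.23), where 46.3% of all genes were called in one direction or the other.

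Promoters of the 3 genes that fell are shown because hypoxia-inducible factor, a known activator of glycolysis genes, binds a core of ACGTG. The windows are the 250 bases before the RefSeq transcription start, read 5′ to 3′ on the strand of the gene from GRCm38.p6, with matches to ACGTG on either strand in capitals.
*Pgk1*, chrX:106186850-106187099, forward strand: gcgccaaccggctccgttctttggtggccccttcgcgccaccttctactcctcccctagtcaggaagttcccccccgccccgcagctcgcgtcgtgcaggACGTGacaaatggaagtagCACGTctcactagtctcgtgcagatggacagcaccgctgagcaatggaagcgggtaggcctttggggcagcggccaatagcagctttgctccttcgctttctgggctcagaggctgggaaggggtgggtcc
*Tpi1*, chr6:124814159-124814408, reverse strand: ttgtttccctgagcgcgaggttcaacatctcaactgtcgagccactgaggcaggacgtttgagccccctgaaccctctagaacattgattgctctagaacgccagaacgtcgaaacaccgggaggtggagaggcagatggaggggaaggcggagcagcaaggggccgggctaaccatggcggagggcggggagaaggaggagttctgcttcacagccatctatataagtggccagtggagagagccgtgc
*Ldha*, chr7:46845554-46845803, forward strand: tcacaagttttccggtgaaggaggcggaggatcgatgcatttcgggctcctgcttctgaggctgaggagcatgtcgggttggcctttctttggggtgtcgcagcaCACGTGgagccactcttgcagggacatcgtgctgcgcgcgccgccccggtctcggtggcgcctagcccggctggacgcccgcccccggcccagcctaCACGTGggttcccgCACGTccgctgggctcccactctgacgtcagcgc
*Pgk1* had 2 matches, *Ldha* 5 (the palindrome CACGTG counts on both strands) and *Tpi1* 0. A second RefSeq start of *Ldha*, with the window chr7:46846832-46847081, had 0. Of the 10 genes 6 had a match in at least one of their windows (*Slc2a1*, *Hk2*, *Aldoa*, *Pgam1*, *Pgk1* and *Ldha*), beside 25.3% of the 10282 tested genes with a window and 16.6% of 32851 windows. A match is a run of letters and not a site shown to be bound.

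Other forms of the same enzymes were read next. Of 20 listed isoenzymes, further steps and lactate carriers, 16 passed the filter, and in the mean of FL and ΔB+C 3 were called higher and 0 lower, beside 4.27% and 6.82% of all genes. Their median was 0.27, beside -0.01 over all genes tested. *Ldhb*, the form of lactate dehydrogenase that prevails in heart, rose by 0.85 (SE 0.11, adjusted p = 0.00299), a call kept without any single library. *Pgam2*, the muscle form of phosphoglycerate mutase, rose by 1.00 (SE 0.20, adjusted p = 0.0161) from a low level, 1.11 to 1.77 CPM without DOX and 2.33 to 3.73 CPM with it in these lines. *Aldoc*, the brain form of aldolase, rose by 0.46 (SE 0.12, adjusted p = 0.044). The call of *Pgam2* was lost without 4 single libraries and that of *Aldoc* without 11, all but ΔB+C DOX replicate 1.

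The other isoenzymes were not called in that mean. With the replicate block, which called 16.7% of all genes higher and 19.2% lower, 6 of the 16 were called higher and 1 lower: beside *Ldhb*, *Pgam2* and *Aldoc*, *Hk1* (0.51, adjusted p = 0.0023), *Pfkp* (0.36, adjusted p = 0.0081) and *Eno3* (0.37, adjusted p = 0.0125) were called higher and the lactate exporter *Slc16a3* (-0.35, adjusted p = 0.0043) lower. *Gapdh*, which uses the triose phosphate and feeds *Pgk1*, had a value of 0.11 (SE 0.13) and *Pkm*, the last step to pyruvate, of -0.03 (SE 0.08). The glucose carrier *Slc2a3* had 0.35 (SE 0.35), at a mean of 69.8 RPKM over the 12 libraries beside 104.3 RPKM for *Slc2a1*. *Pfkm* had 0.15, *Eno2* -0.44, *Eno4* 0.43, *Pklr* 0.02, *Ldhc* 0.19, the carrier *Slc16a1* -0.05 and the copy *Gapdhs* -0.03. *Hk3* and *Pgk2* did not pass the filter, with at most 39 and 0 counts in a library. *Pgk2* stayed at 0 counts in the libraries in which *Pgk1* fell.

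The transcripts of lactate dehydrogenase changed in make-up. *Ldhb* stood at 86.6 and 93.2 RPKM in FL without DOX and at 131.8 and 168.5 RPKM with it, and went from 98.7 and 106.8 to 182.1 and 215.8 RPKM in ΔB+C. In ΔA it was 93.6 and 110.7 against 98.1 and 122.8 RPKM. As a share of the summed RPKM of *Ldha* and *Ldhb*, *Ldhb* was 12.6% ± 0.31 (SD, n = 2) without DOX and 22.8% ± 3.97 with DOX in FL, was 15.1% ± 0.15 against 34.0% ± 4.82 in ΔB+C, and was 13.0% ± 3.15 and 13.0% ± 4.23 in ΔA. These percentages rest on exon lengths of 3310 bases for *Ldha* and 1570 for *Ldhb*. The lengths come from an annotation other than the one used for counting, and other lengths would give other percentages. The rise of *Ldhb* was called in ΔB+C (0.95, adjusted p = 0.0181), lost there without 3 of its 4 libraries, and had an adjusted p of 0.0701 in FL (0.74), of 1.31e-04 with the replicate block. The mean differed from ΔA by 0.73 (SE 0.19), with an adjusted p of 0.17 and, with the replicate block, of 0.00097.

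**Figure D3:**
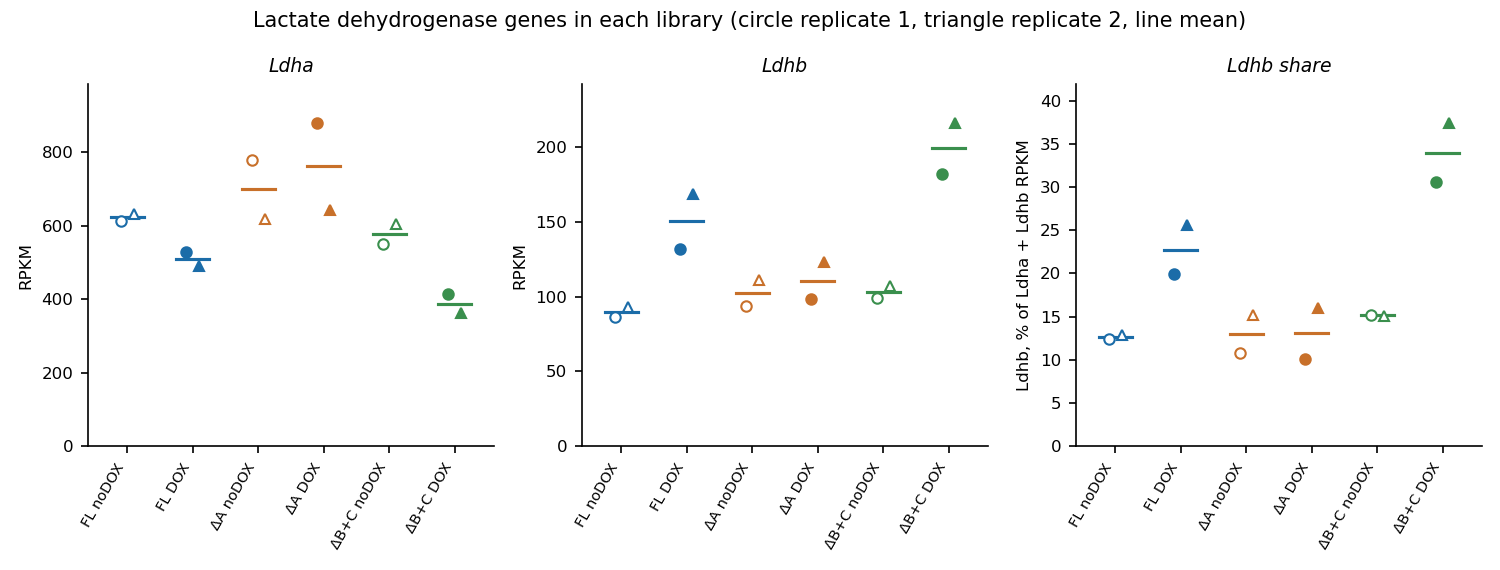
RPKM of *Ldha* and *Ldhb* in the 12 libraries and the share of *Ldhb* in their sum (y axes, from 0), by line and DOX. Circles are replicate 1, triangles replicate 2, filled symbols DOX and bars the mean of 2. The share of *Ldhb* lies at 19.96% to 37.4% in the 4 DOX libraries of FL and ΔB+C and at 10.0% to 16.0% in the other 8.

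Markers of cell state were read in the same libraries. In the mean of FL and ΔB+C 4.27% of all genes were called higher and 6.82% lower. With the replicate block 16.7% were called higher and 19.2% lower. Shares of all genes at an unadjusted p under 0.05 are not given for these markers, so counts at that threshold are description only. Of 5 markers of early differentiation, *Fgf5* fell by 1.29 on the log2 scale in the mean of FL and ΔB+C (adjusted p = 0.00873), and *Otx2*, *Dnmt3b* and *T* had negative values that were not called, *Pou3f1* a positive one. Their summed level was 1650 to 1912 CPM without and 1465 to 1746 CPM with DOX in FL, 1588 to 1741 against 1193 to 1298 CPM in ΔB+C, and 1857 to 2144 against 1846 to 2095 CPM in ΔA. Of 6 pluripotency markers 0 were called with edgeR and 3 had an unadjusted p under 0.05, all 3 with positive values, *Esrrb* (1.54, adjusted p = 0.084), *Sox2* (0.65) and *Zfp42* (1.01), and with the replicate block these 3 were called higher and *Nanog* (-0.25) lower. Their sum was 1907 to 2253 against 2189 to 2553 CPM in FL, 1877 to 2413 against 1926 to 2778 CPM in ΔB+C, and 2186 to 2789 against 2325 to 2976 CPM in ΔA. Primitive endoderm markers, 0 of 4 called (1 at an unadjusted p under 0.05) and 2 called higher with the replicate block, *Gata4* and *Dab2*, summed to 18.7 to 29.9 CPM in FL and 23.6 to 26.4 and 19.04 to 24.2 CPM in ΔA, and to 25.1 to 37.0 CPM without and 38.2 to 50.9 CPM with DOX in ΔB+C. Fibroblast markers, with 3 of 5 tested and 0 called or under an unadjusted p of 0.05, summed to 19.3 to 53.0 CPM in FL, 23.4 to 39.6 CPM in ΔB+C and 10.1 to 16.6 CPM in ΔA, and *Postn* was at 0 counts in 4 of the libraries. The part of these cells or states in the changes of *Tpi1*, *Ldha* and *Ldhb* was not tested.

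A list of X-linked genes of carbohydrate metabolism was read beside *Pgk1*, without *Pfkfb1*, which stands among the regulators. Of 15 tested, 14 were called lower in the mean of FL and ΔB+C and 0 higher, with a median of -0.78, beside 332 of 464 X-linked genes called lower and a median of -0.81. In FL 7, in ΔB+C 9 and in ΔA 0 were called lower, beside 1.09%, 2.13% and 0% of all tested genes. The shares of X-linked genes called in single lines, or under an unadjusted p of 0.05, are not given here. In ΔA 3 had an unadjusted p under 0.05, among them the phosphorylase kinase subunit gene *Phka1* (-1.06, against -1.07 in FL and -1.15 in ΔB+C) and the lysosomal sulfatase gene *Ids* (-0.76, against -0.97 and -0.58), both with an adjusted p of 1 in ΔA. The 5 of this list with the smallest p were *Pdk3*, a kinase that switches off pyruvate dehydrogenase (-1.13, adjusted p = 5.34e-05), the phosphoribosyl pyrophosphate synthetase gene *Prps1* (-0.81), the first enzyme of the pentose phosphate pathway, *G6pdx* (-0.81), glycerol kinase, *Gk* (-1.18), and alpha-galactosidase, *Gla* (-1.002). The gene not called was *Idh3g* (-0.17, adjusted p = 0.101, with the replicate block 0.0178), a subunit gene of mitochondrial isocitrate dehydrogenase.

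Branches of glycolysis were read in the same way. In the mean of FL and ΔB+C 6.82% of all genes were called lower and 4.27% higher. In the pentose phosphate list 3 of 10 were called lower, *G6pdx*, *Prps1* and *Prps2* (-0.89), all X-linked, and the 7 autosomal genes were not called (median of the 10 -0.04), although with the replicate block *Taldo1* was called higher (0.20). Among 12 regulators of glycolysis 2 were called lower, the X-linked *Pdk3* and *Pfkfb1* (-1.24, adjusted p = 0.000712), whose enzyme sets the level of the activator of phosphofructokinase, and 1 higher, the gluconeogenic *Fbp1* (1.52, adjusted p = 0.0207, lost without 5 single libraries). In FL and ΔB+C *Fbp1* stood at 0.54 to 0.95 CPM without DOX and 1.11 to 2.84 CPM with it. It passed the filter only with the DOX libraries of FL and ΔB+C, in which it was then called higher, together with replicate 1 of ΔA with and without DOX. This call is therefore no independent support. The median of the 12 was 0.16, and with the replicate block 5 were called higher and 2 lower, beside 16.7% and 19.2% of all genes. Of 7 genes of pyruvate dehydrogenase and pyruvate import 2 were called lower, the X-linked subunit *Pdha1* (-0.59, adjusted p = 0.0118) and the autosomal *Dld* (-0.34, adjusted p = 0.0137, lost without 3 single libraries), with a median of -0.10. Of 6 genes of the serine branch, which drains 3-phosphoglycerate, the product of *Pgk1*, 2 autosomal ones were called lower, *Psat1* (-0.56, adjusted p = 0.00378, kept without any single library) and *Phgdh* (-0.27, adjusted p = 0.0481, lost without each of the 12), with a median of -0.11. *Psat1* also differed between that mean and ΔA, by -0.87 (adjusted p = 0.0403, lost without 11 single libraries). Its value in ΔA was 0.31 (adjusted p = 1), from 382.9 and 458.3 CPM without DOX to 513.0 and 529.6 CPM with it, and without DOX it was called lower in ΔA than in FL (-0.47, adjusted p = 0.0323, lost without 6 single libraries).

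The hypoxia list holds targets of hypoxia-inducible factor and the genes of its own subunits, *Hif1a*, *Epas1* and *Arnt*. Of 20 tested, beside 4.27% of all genes called higher and 6.82% lower, 2 were called higher, the stress gene *Ddit4* (0.85, adjusted p = 0.00111, kept without any single library) and the histone demethylase gene *Kdm3a* (0.31, adjusted p = 0.0493, lost without 10), and 1 lower, *Egln1* (-0.38, adjusted p = 0.025, lost without 5), the oxygen sensor that marks the factor for decay. *Bnip3* (-0.38) and *Epas1* (0.95) came next by p and were not called. With the replicate block 3 were called higher and 4 lower, close to the 16.7% and 19.2% of all genes. The median of the 20 was 0.09, beside -0.01 over all genes tested. In FL and in ΔB+C *Ddit4* was the 1 gene of this list called.

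**Figure D4:**
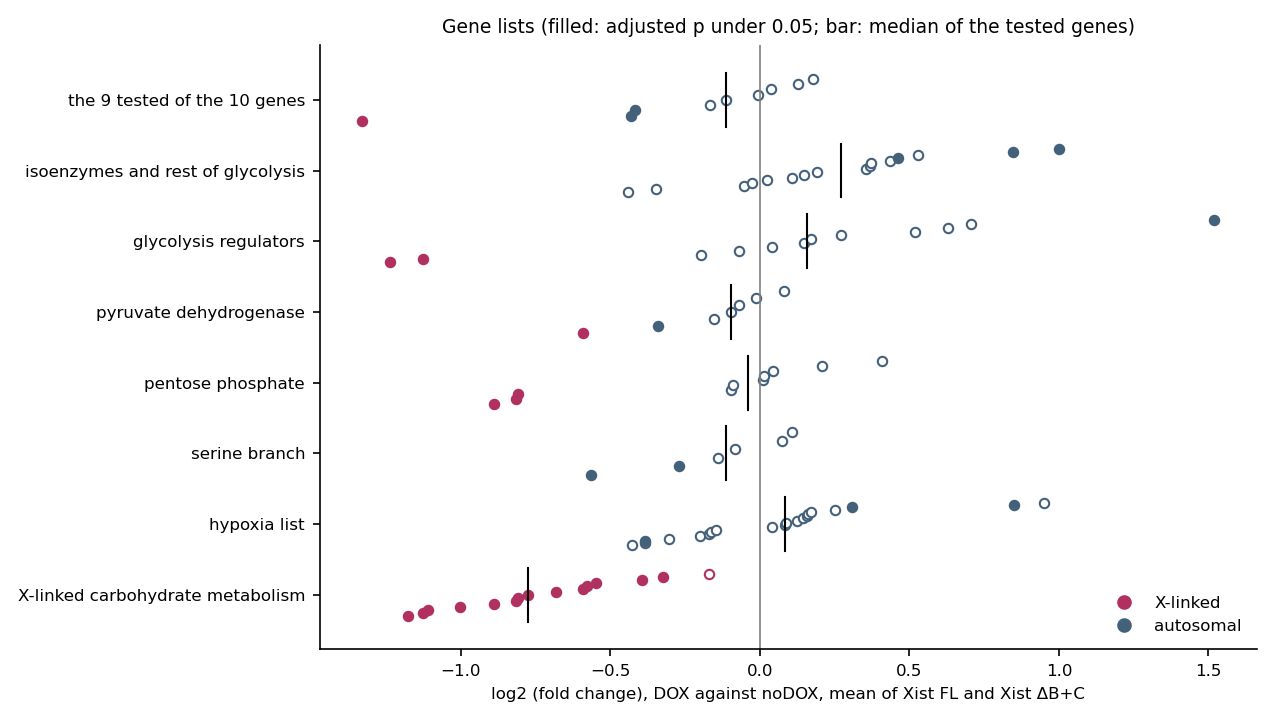
Log2 (fold change) of DOX against noDOX in the mean of FL and ΔB+C (x axis) for the tested genes of each list (rows); points are genes, coloured by chromosome and filled where the adjusted p was under 0.05, and bars are medians. The X-linked genes lie to the left in every list that holds any, with 14 of 15 called lower in the bottom row.

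Over the 12 libraries the genes whose log2 CPM followed *Pgk1* most closely were X-linked, *Timm8a1* (Pearson's r 0.997), *Nkrf* (0.994), *Armcx1* (0.987), *Hnrnph2* (0.987) and *Dlg3* (0.986). The closest autosomal genes were *Nom1* (0.985), *Sumo3* (0.980) and *Thbs4* (0.979). Within the pathway the order was *Tpi1* (0.929), *Ldha* (0.908), *Pfkl* (0.760), the *Eno1b* row (0.544), *Pgam1* (0.303), *Aldoa* (0.189), *Hk2* (-0.127), *Slc2a1* (-0.304) and *Gpi1* (-0.521). These values describe libraries that share lines, DOX and replicate numbers, so that any gene that differs between the 4 DOX libraries of FL and ΔB+C and the rest scores highly.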

How the data were processed

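RNA-seq counts of 12 libraries, 2 for each of 6 groups set by the labels, were used. The authors mapped read pairs to mm10 with TopHat 2.1.0 and a refFlat annotation and counted pairs over exons with featureCounts 1.5.1. The deposited counts are raw, per gene and library, and neither a strand setting nor duplicate removal is given in the sources used here. Without strand, reads of overlapping genes cannot be told apart. Totals were 31337490 to 41240470. The floor of 3 counts covers counting error only, and PCR copies are not independent molecules. The 95% intervals come from the fit and include the spread between replicates.

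Counts were tested with edgeR 4.0.16 (quasi-likelihood, robust, 6 group means, all 12 libraries) in R 4.3.3, after a filter of 1 CPM in 6 libraries and with TMM factors (0.978 to 1.02) from expressed autosomal genes, with Benjamini-Hochberg adjustment over all 13191 genes. Positions and exon lengths came from GENCODE vM21 (24040 genes matched by name and chromosome) and promoters from RefSeq on GRCm38.p6. *Gyk* was read as *Gk*. Alternatives were DESeq2 1.42.0, limma-voom (3.58.1), other TMM factors, library totals, other filters, the compared lines alone, added copies, a replicate block and leaving out each library. The replicate numbers of the labels pair the samples: differences between replicates 2 and 1 correlated in all 15 pairs of groups (r 0.39 to 0.782). The tests of FL, of ΔA and of the mean of FL and ΔB+C were also run on simulated counts. These had less spread than the data and no replicate effect, and the other comparisons were not checked in this way. Python 3.11.15 with matplotlib 3.10.9 made the figures.

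The genes and lists were chosen with earlier results of these data known. Named are the 10 genes, *Xist*, all isoenzymes and copies, at most 5 genes of any other list by smallest p, the 3 tested neighbours of *Pgk1* on each side, and the 5 genes and 3 autosomal genes closest to it in pattern. Marker genes, *Idh3g*, *Phka1*, *Ids*, *Hif1a* and *Arnt* were named after their values were seen. Some isoenzymes that did not pass the filter are not reported here. Taking *Pgk1* relative to the 8 other tested genes was also chosen after seeing the data. *Pgk1-rs7* and *Gm3839* were not analysed here.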

Additional observations from a re-analysis of the deposited data

Results flagged for a closer look

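The response of *Pgk1* to DOX differed between lines in a test of the difference itself: the mean log2 (fold change) of FL and ΔB+C minus that of ΔA was -1.35 (SE 0.21, adjusted p = 0.0403). The call was lost without each of 11 single libraries, as given above. With groups of 2, no library could be tested as standing apart from its group.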

How the results depend on the processing

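Scaled by library totals instead of TMM, the difference of *Pgk1* between the mean of FL and ΔB+C and ΔA was -1.29 and no longer called, which leaves 0 genes lower there. With the libraries of the compared lines alone *Pgk1* was -1.18 in FL and -1.48 in ΔB+C without a call, and 0 of the 9 tested genes were called in each, in fits with fewer samples. The replicate block called 4 genes lower in ΔB+C, 1 higher in the mean, 1, 3 and 3 lower in FL, ΔB+C and their mean minus ΔA, 2 higher in ΔA minus FL and 1 lower in ΔB+C minus ΔA without DOX, and changed no other count of calls. DESeq2 called 3 lower in ΔB+C, with *Ldha* (-0.57) added to *Pgk1* and *Tpi1*, and 1, 2 and 2 lower in the same differences from ΔA, where edgeR called 0, 0 and 1, and 1 without DOX, as did library totals. The cause was not tested.

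Other settings turned the sign of values near 0. With library totals these were *Hk2* (-0.037), *Pgk1* (-0.019) and *Pgam1* (-0.019) in ΔA, *Slc2a1* (0.011) and *Eno1b* (0.0077) in the mean, *Pfkl* (0.024), *Aldoa* (0.017) and *Eno1b* (0.0064) in FL minus ΔA, and *Gpi1* (0.045) in ΔB+C minus ΔA. With TMM factors from all genes *Slc2a1* was 0.0023 in the mean, and with at least 5 CPM *Hk2* was -0.0010 in ΔA.

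Without single libraries *Pgk1* lay between -1.30 and -1.07 in FL, -1.65 and -1.33 in ΔB+C, -0.20 and 0.22 in ΔA, and -1.55 and -1.13 for the mean minus ΔA. The genes called lower were 0 to 1 in FL, 0 to 2 in ΔB+C and 0 to 1 for the mean minus ΔA. In FL the range was -0.40 to 0.25 for *Slc2a1*, -0.11 to 0.053 for *Pfkl*, -0.035 to 0.31 for *Aldoa* and -0.12 to 0.014 for *Pgam1*. In ΔA it was -0.22 to 0.13 for *Slc2a1*, -0.16 to 0.20 for *Hk2*, -0.046 to 0.19 for *Gpi1*, -0.10 to 0.069 for *Pfkl*, -0.024 to 0.069 for *Pgam1* and -0.12 to 0.33 for *Ldha*. In ΔB+C it was -0.17 to 0.20 for *Slc2a1*, -0.21 to 0.25 for *Gpi1* and -0.27 to 0.19 for *Aldoa*. In the mean it was -0.19 to 0.14 for *Slc2a1*, -0.071 to 0.16 for *Aldoa* and -0.056 to 0.041 for *Eno1b*, and for the mean minus ΔA -0.14 to 0.21 for *Slc2a1*, -0.02 to 0.34 for *Hk2*, -0.069 to 0.17 for *Gpi1* and -0.22 to 0.0075 for *Aldoa*. A left-out library leaves its group with 1, whose spread is assumed to be that of the other groups. The 2 replicates per group limit what these depths can show. In the mean, without the replicate block, a shift of the size of *Hk2*'s lies within the intervals of *Slc2a1*, *Gpi1* and *Aldoa*.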
